A study of Caenorhabditis elegans with 6 samples.

Results

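The hedgehog-related and patched-related gene families of the nematode Caenorhabditis elegans were examined in worms raised on the organophosphorus insecticide chlorpyrifos (CPF) and in control worms. Members were all genes whose symbol begins with wrt- (warthog), grd- (groundhog), grl- (ground-like), ptc- (patched) or ptr- (patched-related), together with qua-1, hog-1, che-14 and daf-6. They were found through the sequence name of each probe, matched to the gene table of the assembly WBcel235. In all 88 of 22490 probes were members, and they stood for 85 of 18865 genes. The table names 90 such genes, and grd-13, grd-15, grl-25 and the pseudogenes grd-17 and grl-32 were not analysed here. The members were split into 56 ligand genes (10 wrt, 14 grd, 30 grl, qua-1 and hog-1) and 29 receptor genes (3 ptc, 24 ptr, che-14 and daf-6). One of the ptc genes, ptc-2, is annotated as a pseudogene.

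In flies and vertebrates a secreted Hedgehog protein binds the membrane protein Patched, which then releases its hold on Smoothened and on transcription factors of the Gli family. C. elegans has no true Hedgehog and no Smoothened, but it has greatly expanded families of secreted proteins that are related to Hedgehog and of membrane proteins that are related to Patched. The classes of ligand proteins are named for the domain at their N-terminus (Wart, Ground or Ground-like), and QUA-1, HOG-1 and some of the warthog and groundhog proteins also carry the self-cleaving Hog domain in their C-terminal part. The receptor proteins carry the sterol-sensing domain and resemble transporters. Many of these genes are transcribed in the epidermis and in glia, in pulses that follow the moulting cycle, and loss of several of them disturbs moulting, the cuticle, osmoregulation or the lumen of epithelial tubes and sense organs.

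Whole worms (wild type strain N2) were collected at L3 to L4, the last larval stages, after 72 hours at 16 °C on plates seeded with bacteria. Plates of treated worms held CPF dissolved in acetone, and those of control worms held acetone only. The labels give the concentration as 0.5 mg/ml, the study's text gives that figure per litre, and the files do not settle the unit. Each array compared 1 CPF sample with 1 control sample, each pooled from 4 dishes, and on 3 arrays CPF was labelled with Cy5 (CPF Cy5 replicates 1 to 3) and on 3 with Cy3 (CPF Cy3 replicates 1 to 3). The labels do not say whether every control extract was separate, so the spread behind each p-value is that between the 6 arrays. Per sample 34.98% to 61.6% of probes were above background, the lowest share being that of CPF on CPF Cy3 replicate 2. Correlations of the ratios between arrays ran from -0.12 to 0.56. The files place CPF Cy5 replicates 1 and 2 and CPF Cy3 replicate 1 on one scan day and the other 3 arrays on a second. In whole worms, fewer cells of a type and less RNA per cell cannot be told apart.

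All ratios are CPF over control on the log2 scale, so that a negative value means a lower transcript level in CPF treated worms. A gene was called where limma's test across all genes gave an adjusted p below 0.05, and values are given as the fitted log2 fold change ± SE over 6 arrays. One of the 85 members passed this test, against 1.19% of all genes. It was the ligand gene wrt-4, which fell, as 0.869% of all genes did. None of the 85 rose, against 0.323% of all genes. At an unadjusted p below 0.05, 6 ligand genes and 0 receptor genes were lower, against 6.45% of all genes, and 3 ligand genes and 7 receptor genes were higher, against 3.89% of all genes. The rank product, the test named in the study's methods, called wrt-4 lower, against 2.08% of all genes, and the receptor gene ptr-15 higher, against 0.859% of all genes. The count of 1 call among 85 members was thus close to the share over all genes. Of the ligand genes 28 of 56 had a fold change above 0, beside 51.8% of all genes, while 25 of 29 receptor genes did. The median fold change was 0.00 for ligands (quartiles -0.12 and 0.09) and 0.15 for receptors (quartiles 0.09 and 0.20), beside 0.01 for all genes (quartiles -0.08 and 0.08). These counts and medians include dim genes, since 20 of 56 ligand genes and 3 of 29 receptor genes were above background on no array. Among genes above background on all arrays of a condition, the median was 0.08 for 26 ligands and 0.16 for 14 receptors. It was -0.01 for all genes that met this rule.

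**Figure D1:**
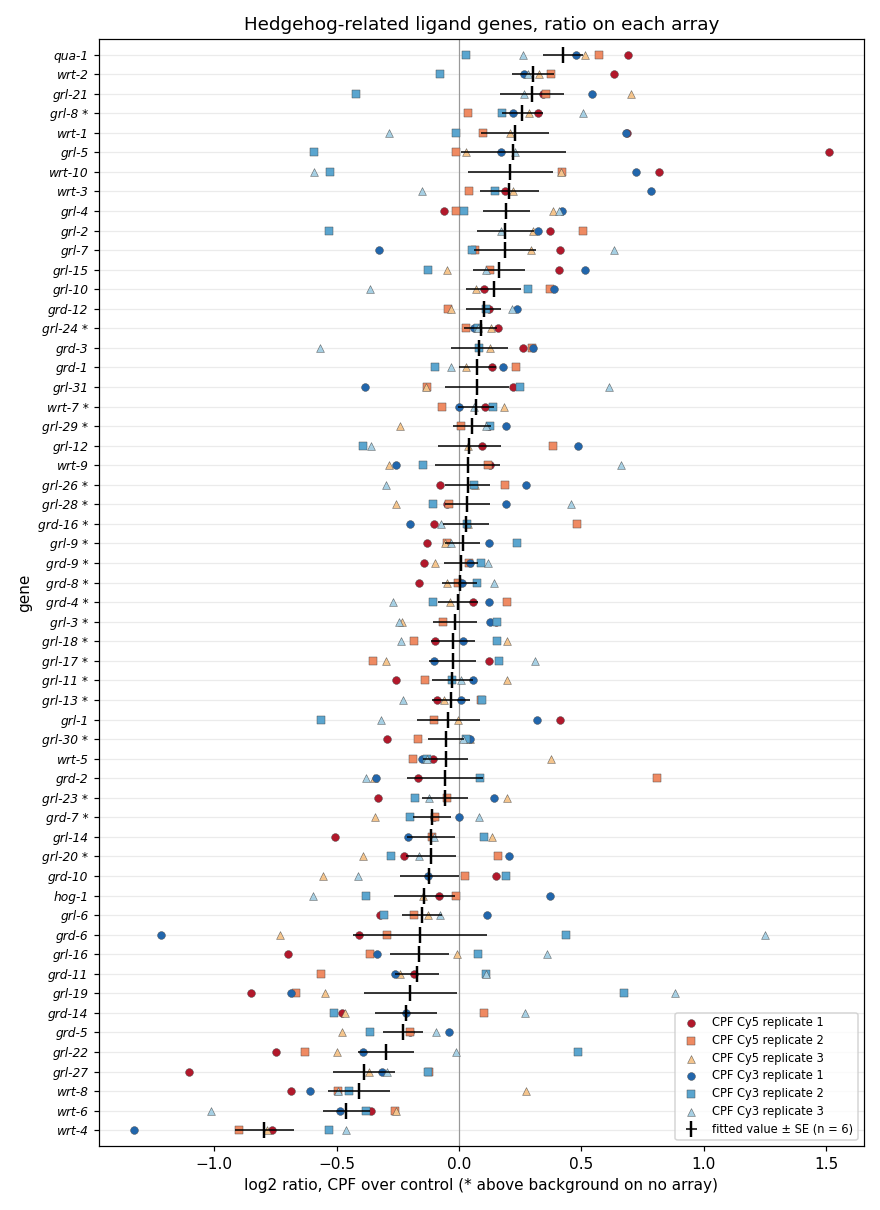
Log2 ratio of CPF over control (horizontal axis) of the 56 ligand genes (vertical axis, sorted by fold change). Points are single arrays, black marks the fitted value ± SE over 6 arrays, and asterisks mark the 20 genes above background on no array; wrt-4 at the bottom has all 6 points below -0.46, and qua-1 at the top has all 6 above 0.

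Among the ligand genes the strongest change was the fall of wrt-4. Its log2 intensity in CPF treated worms was 11.17, 10.72 and 11.23 on CPF Cy5 replicates 1 to 3 and 10.16, 11.05 and 11.27 on CPF Cy3 replicates 1 to 3. In control worms it was 11.93, 11.62 and 12.01 on CPF Cy5 replicates 1 to 3, and 11.49, 11.58 and 11.73 on CPF Cy3 replicates 1 to 3. Every CPF level thus lay below every control level. This held for 1 of 85 members and for 0.217% of all genes, and the opposite order held for 0 members and 0.133% of all genes. The fold change of wrt-4 was -0.80 ± 0.12 (adjusted p = 0.0314 in limma), a 1.74-fold lower level. Single ratios ran from -1.33 on CPF Cy3 replicate 1 to -0.46 on CPF Cy3 replicate 3. Its direction was the same under all 18 alternative settings that were run. The call was not, since wrt-4 passed in 10 and missed the threshold in 8 of them, with adjusted p from 0.00729 to 0.151. The lowest value, 1 of the 10 passes, came without CPF Cy3 replicates 2 and 3, a setting chosen after the ratios were seen. With 1 array left out the adjusted p in limma was 0.134 (CPF Cy5 replicate 1), 0.151 (CPF Cy5 replicate 2), 0.0881 (CPF Cy5 replicate 3) and 0.0855 (CPF Cy3 replicate 3). It was 0.121 with no background correction and 0.134 with plain subtraction.

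A further pair of genes came near the threshold, wrt-6 with lower and qua-1 with higher ratios. Lower on all 6 arrays were 4 of 56 ligand genes (wrt-4, wrt-6, grd-5 and grl-27), beside 4.28% of all genes, and 0 of 29 receptor genes. The ratio of wrt-6 was -0.36, -0.26 and -0.26 on CPF Cy5 replicates 1 to 3 and -0.49, -0.38 and -1.01 on CPF Cy3 replicates 1 to 3. The low value on CPF Cy3 replicate 3 came with a dim spot, since wrt-6 had log2 intensities of 7.67 and 8.69 there in CPF and control worms, while its control levels on CPF Cy5 replicates 1 to 3 and CPF Cy3 replicate 1 were 10.47 or more. Its fold change was -0.46 ± 0.10 (adjusted p = 0.0844 in limma), and it passed only with scale normalization between arrays (adjusted p = 0.0316). The gene qua-1, which is needed for moulting, pointed the other way. Its log2 intensity was 12.23, 11.92, 12.21, 11.73, 11.87 and 12.16 in CPF treated worms and 11.54, 11.35, 11.70, 11.25, 11.84 and 11.90 in control worms, in the same order of arrays. The levels of the conditions overlapped between arrays, but within each array CPF was higher. The fold change of qua-1 was 0.42 ± 0.08 (adjusted p = 0.0640), with a ratio of 0.03 on CPF Cy3 replicate 2 and of 0.26 to 0.69 on the other arrays. It passed with scale normalization (adjusted p = 0.0423), within scan day 1 and without CPF Cy3 replicates 2 and 3.

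**Figure D2:**
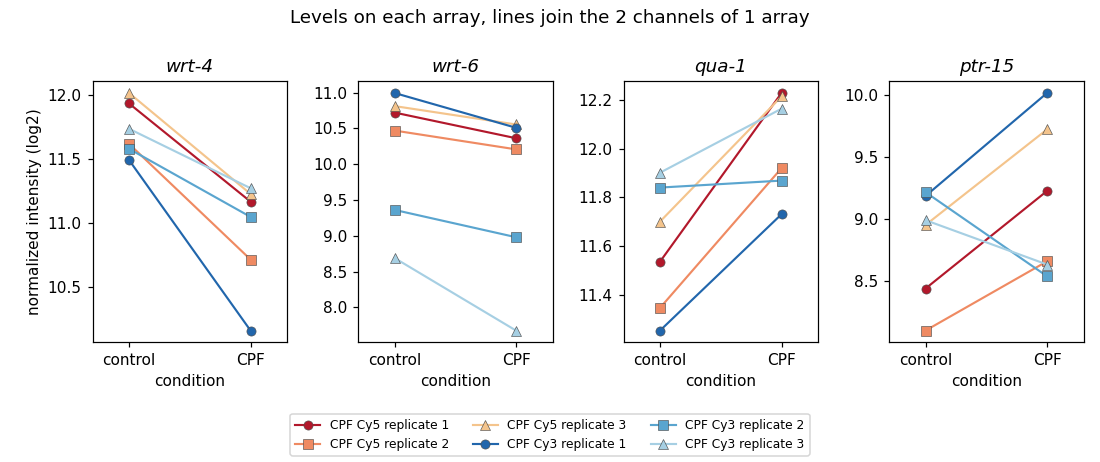
Normalized log2 intensity (vertical axis, a separate scale for each gene) in control and CPF treated worms (horizontal axis) of wrt-4, wrt-6, qua-1 and ptr-15. Each line joins the channels of 1 array; all 6 lines fall for wrt-4 and wrt-6, all 6 rise for qua-1, and for ptr-15 the lines of CPF Cy3 replicates 2 and 3 fall while the other 4 rise.

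The wrt genes went both ways. Of the 10 genes, 6 had a fold change above 0, and the fold changes ran from -0.80 (wrt-4) to 0.30 (wrt-2). The gene wrt-2, a widely used marker of the seam cells of the epidermis, had ratios of 0.63, 0.38 and 0.33 on CPF Cy5 replicates 1 to 3 and of 0.27, -0.08 and 0.28 on CPF Cy3 replicates 1 to 3. It was thus higher on 5 of 6 arrays, and its fold change of 0.30 ± 0.09 missed the threshold (adjusted p = 0.205). The spot of wrt-2 was dimmer on CPF Cy3 replicate 2, at 9.74 in CPF and 9.82 in control worms. Both levels were 11.01 or more on the other arrays. On the low side, wrt-8 (-0.41 ± 0.13, adjusted p = 0.245) had ratios of -0.68 to -0.45 on 5 arrays and of 0.27 on CPF Cy5 replicate 3. It was above background in 4 CPF and 5 control samples only. The gene wrt-5, which is required for normal morphogenesis of the embryo, had ratios of -0.19 to -0.11 on 5 arrays and of 0.38 on CPF Cy5 replicate 3 (fold change -0.06 ± 0.09, adjusted p = 0.913). The genes wrt-1 and wrt-10 lie next to each other in WBcel235, with 0 genes between them. Their fold changes were alike (0.23 ± 0.14 and 0.21 ± 0.17, adjusted p = 0.669 and 0.788), and both had positive ratios on 4 arrays and negative ones on CPF Cy3 replicates 2 and 3. For wrt-10 the ratios were 0.82, 0.42, 0.42 and 0.72 on the former and -0.53 and -0.59 on the latter, a spread (SD 0.62) that was larger than its mean. The gene hog-1, whose protein carries a Hog domain, had ratios from -0.60 to 0.37 (fold change -0.14 ± 0.13, adjusted p = 0.803).

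A part of the groundhog and ground-like genes was dim. Above background on no array were 5 of 14 grd genes (35.7%) and 14 of 30 grl genes (46.7%), beside 33.4% of all genes, and no fold is given for these. The median fold change was -0.03 for grd genes and 0.00 for grl genes. In limma 0 of the 44 passed, beside 1.19% of all genes. The rank product called 0, beside 0.859% of all genes higher and 2.08% lower. At an unadjusted p below 0.05 in limma 1 was higher and 3 were lower, beside 3.89% and 6.45% of all genes. Among the brighter ones grd-5 had ratios below 0 on every array, with -0.20, -0.20, -0.48, -0.04, -0.37 and -0.10 on the 6 arrays (fold change -0.23 ± 0.08, adjusted p = 0.350). For grl-27 the ratios were -1.10 on CPF Cy5 replicate 1 and -0.37 to -0.12 on the others. Its probe was above background in 5 control samples but in only 1 CPF sample. The gene grl-22 had ratios of -0.75, -0.63, -0.50 and -0.39 on 4 arrays and of 0.49 and -0.01 on CPF Cy3 replicates 2 and 3 (fold change -0.30 ± 0.12, adjusted p = 0.412). On the high side was grl-21, a ligand gene that acts with ptr-24 in fat metabolism. Its ratio was -0.42 on CPF Cy3 replicate 2 and 0.27 to 0.70 on the other 5 arrays (fold change 0.30 ± 0.13, adjusted p = 0.487). The negative ratio came with a dimmer spot, at log2 intensities of 8.38 in CPF and 8.80 in control worms. On the other arrays both levels of grl-21 were 11.16 or more. The gene grl-7, whose protein is found in the cuticle, had a fold change of 0.19 ± 0.13 (adjusted p = 0.711) with ratios from -0.33 to 0.63. The gene grl-2, which is transcribed in the duct and pore cells of the excretory system, was higher on 5 arrays (0.17 to 0.51) and lower on CPF Cy3 replicate 2 (-0.53), and its fold change was 0.19 ± 0.12 (adjusted p = 0.680). Higher on all 6 arrays were grl-8, grl-24 and qua-1 among the ligand genes, beside 2.86% of all genes. Both grl-8 and grl-24 were above background on no array.

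**Figure D3:**
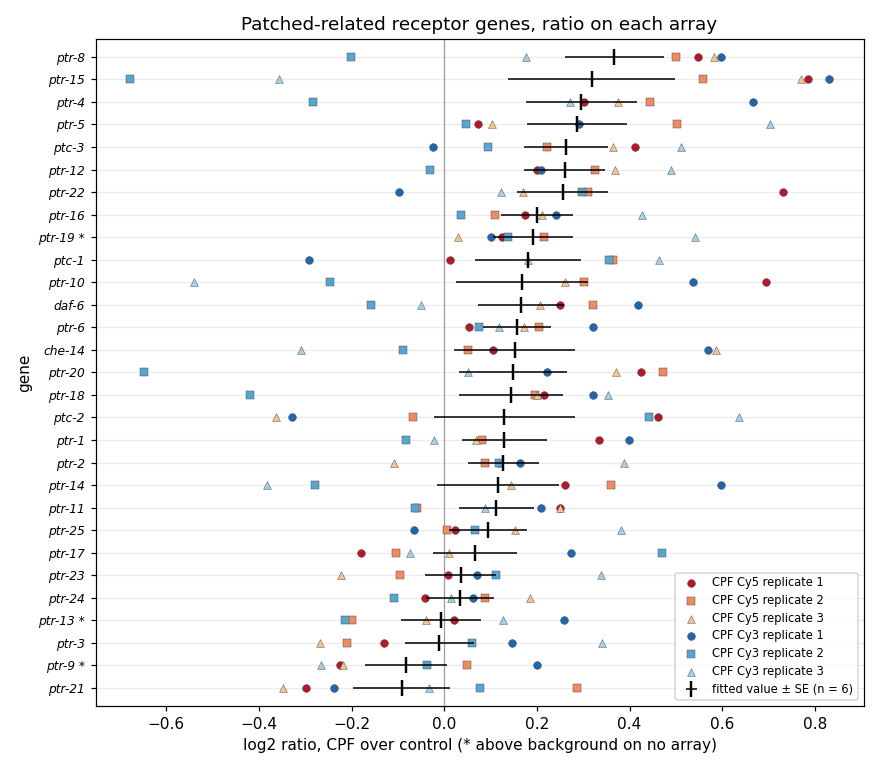
Log2 ratio of CPF over control (horizontal axis) of the 29 receptor genes (vertical axis, sorted by fold change). Points are single arrays, black marks the fitted value ± SE over 6 arrays, and asterisks mark the 3 genes above background on no array; 25 fitted values lie above 0, and none passed the test.

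The receptor genes had mostly small positive ratios, none of which passed the test on its own. Fold changes ran from -0.09 (ptr-21) to 0.37 (ptr-8), and the 4 below 0 were ptr-21, ptr-9, ptr-3 and ptr-13. On single arrays 24, 23 and 22 of the 29 genes were higher in CPF on CPF Cy5 replicates 1 to 3, and 23, 14 and 20 on CPF Cy3 replicates 1 to 3, while the share among all genes was 48.15% to 52.6%. The 56 ligand genes gave 26, 26, 26, 34, 30 and 27 in the same order. The median of the receptor genes was 0.17, 0.20, 0.17, 0.22, -0.03 and 0.13 on the 6 arrays. It was above that of all genes (-0.02 to 0.02) on every array but CPF Cy3 replicate 2. On that array ptr-11, ptr-12, ptr-23 and ptr-24 were dim, with log2 CPF intensities of 6.19, 6.26, 6.41 and 6.17. Their CPF intensities were 8.10 or more on the other arrays. Their ratios on CPF Cy3 replicate 2 were -0.06, -0.03, 0.11 and -0.11. The part of such dim spots in the median of that array was not tested. No test was made of the list of 29 receptor genes. Across the 17 settings over all genes, 23 to 27 of the 29 receptor genes had a fold change above 0, and their median stayed between 0.09 and 0.19. It was lowest, at 0.09, without CPF Cy3 replicate 1. The 7 receptor genes with an unadjusted p below 0.05, all higher, became 2 when CPF Cy5 replicate 2 was left out, 3 when any of CPF Cy5 replicate 1, CPF Cy5 replicate 3 and CPF Cy3 replicate 3 was, and 0 within scan day 2. The number became 9 without CPF Cy3 replicate 2, 10 within scan day 1 and 12 without CPF Cy3 replicates 2 and 3. Plain background subtraction gave 4, and leaving out dim probes gave 2 among the 14 receptor genes kept. Blocking by replicate number gave 5 and by scan day 6. No background correction, the authors' ratios, scale normalization and no dye term each gave 8. Probe averaging and leaving out CPF Cy3 replicate 1 each gave 7. Of the 7 genes in the main fit, 4 were above background on all arrays of a condition, and ptr-5, ptr-12 and ptr-22 were not. The count over all 18865 genes, in either direction, moved as well. It was 1950 on all 6 arrays, 1429 without CPF Cy5 replicate 2 and 1488 within scan day 2. It was 2100 without CPF Cy3 replicate 2, 4023 within scan day 1 and 3687 without CPF Cy3 replicates 2 and 3. Of the 29 genes 14 (48.3%) were above background on all arrays of a condition, 12 on some arrays and 3 (10.3%) on none, beside 37.5% of all genes on all arrays of a condition and 33.4% on none.

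**Figure D4:**
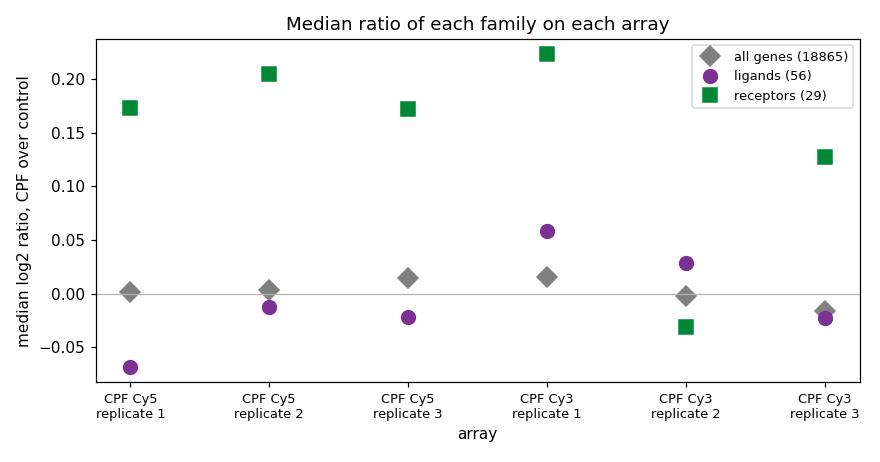
Median log2 ratio of CPF over control (vertical axis) on each array (horizontal axis) of all genes, of the 56 ligand genes and of the 29 receptor genes. The receptor median lies between 0.13 and 0.22 on 5 arrays and at -0.03 on CPF Cy3 replicate 2, and the ligand median lies between -0.07 and 0.06.

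The ptc genes encode the proteins closest to Patched. The gene ptc-3, which is needed for osmoregulation, had 2 probes. The brighter gave ratios of 0.41, 0.22 and 0.36 on CPF Cy5 replicates 1 to 3 and of -0.02, 0.09 and 0.51 on CPF Cy3 replicates 1 to 3 (0.26 ± 0.09, adjusted p = 0.321). The other probe went the same way on average (0.31 ± 0.14), with ratios from -0.28 to 1.09. The gene ptc-1, which acts in cytokinesis of the germ line, was higher on 5 arrays (0.01 to 0.46) and lower on CPF Cy3 replicate 1 (-0.29), with a fold change of 0.18 ± 0.11 (adjusted p = 0.684). For the pseudogene ptc-2 the brightest of 3 probes ran from -0.36 to 0.64, and the other 2 were above background on no array. The genes che-14, a relative of Dispatched with a role in apical secretion by epithelia, and daf-6, which shapes the lumen of the amphid sense organ, had fold changes of 0.15 ± 0.13 (adjusted p = 0.798) and 0.16 ± 0.09 (adjusted p = 0.629). Their ratios were positive on 4 arrays, 0.05 to 0.59 for che-14 and 0.21 to 0.42 for daf-6, and negative on CPF Cy3 replicates 2 and 3. The probe of che-14 was above background in 4 CPF and 4 control samples only, that of daf-6 in 4 and 5. On CPF Cy5 replicate 3 daf-6 was dim, with log2 intensities of 6.51 in CPF and 6.31 in control worms.

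The ptr genes held the highest values among the receptors. The gene ptr-8 had log2 intensities of 9.51, 9.45, 9.56, 9.57, 9.88 and 8.94 in CPF treated worms and of 8.97, 8.95, 8.98, 8.98, 10.08 and 8.77 in control worms, in the order of CPF Cy5 replicates 1 to 3 and CPF Cy3 replicates 1 to 3. It was higher in CPF on 5 of 6 arrays, and the levels of the conditions overlapped between arrays. Its fold change was 0.37 ± 0.11 (adjusted p = 0.215). The gene ptr-15 had ratios of 0.79, 0.56, 0.77 and 0.83 on the first 4 arrays in that order and of -0.68 and -0.36 on CPF Cy3 replicates 2 and 3. Its 6 ratios thus fell into 2 sets of opposite sign, and the limma test over all arrays gave 0.32 ± 0.18 (adjusted p = 0.633). The gene ptr-4, whose protein takes part in building the matrix that precedes the cuticle, had ratios of 0.27 to 0.67 on 5 arrays and of -0.28 on CPF Cy3 replicate 2 (0.30 ± 0.12, adjusted p = 0.443). Smaller but on all 6 arrays above 0 were the ratios of ptr-16 (0.04 to 0.43, fold change 0.20 ± 0.08, adjusted p = 0.420) and ptr-6 (0.05 to 0.32, fold change 0.16 ± 0.07, adjusted p = 0.538). In all 4 of 29 receptor genes were higher on every array, these and ptr-5 and ptr-19, beside 2.86% of all genes. Of these 4, ptr-19 was above background on no array. The gene ptr-10, which is transcribed in glia, had ratios of 0.26 to 0.69 on 4 arrays and of -0.25 and -0.54 on CPF Cy3 replicates 2 and 3 (0.17 ± 0.14, adjusted p = 0.793). The gene ptr-18, whose protein clears GRL-7 from the extracellular space, gave 0.20 to 0.35 on 5 arrays and -0.42 on CPF Cy3 replicate 2, with a fold change of 0.14 ± 0.11 (adjusted p = 0.764). Fold changes were smaller for ptr-2, which acts in the eggshell and early embryo (0.13 ± 0.08, adjusted p = 0.668), ptr-23, which takes part in the response to osmotic stress (0.04 ± 0.08, adjusted p = 0.937), and ptr-24 (0.03 ± 0.07, adjusted p = 0.937). Both ptr-23 and ptr-24 were above background in 5 CPF and 5 control samples only, and were dim on CPF Cy3 replicate 2. For ptr-2 the dim array was CPF Cy5 replicate 3, at 6.87 in CPF and 6.98 in control worms, beside 8.17 or more elsewhere. The control level of ptr-22 was above background on no array, and no fold is given for it.

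CPF Cy3 replicates 2 and 3 differed from the other 4 arrays for a number of members. Positive on 4 arrays and negative on these 2 were 4 of 56 ligand genes (wrt-1, wrt-10, grd-1 and grl-12) and 6 of 29 receptor genes (ptr-1, ptr-10, ptr-14, ptr-15, che-14 and daf-6), beside 4.99% of all genes. The opposite order was found in 4 ligand genes (grl-16, grl-19, grd-6 and grd-11) and 0 receptor genes, beside 3.75% of all genes. By the SD of the 6 ratios the widest spread among the members was that of grd-6 (SD 0.88), with ratios of -0.41, -0.30, -0.73 and -1.22 on 4 arrays and of 0.44 and 1.25 on CPF Cy3 replicates 2 and 3. It was followed by grl-19 (SD 0.77), with -0.85, -0.67, -0.55 and -0.69 on the former and 0.68 and 0.88 on the latter. Without these 2 arrays limma called 8 members (9.41% of 85), beside 3.28% of all genes. They were wrt-4 (-1.07), grl-19 (-0.69) and grd-6 (-0.85) with lower levels, and qua-1 (0.54), wrt-10 (0.64), ptr-4 (0.52), ptr-8 (0.57) and ptr-15 (0.77) with higher levels. This set of arrays was chosen after the ratios were seen, so the list only describes them.

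CPF Cy3 replicates 2 and 3 were scanned on the second day, together with CPF Cy5 replicate 3. Within scan day 1 limma called 9 members, beside 4.56% of all genes. Lower were wrt-4 (-1.08), wrt-8, grl-19, grl-22 and grd-6, and higher were qua-1 (0.55), wrt-10, ptr-8 (0.56) and ptr-15 (0.75). Within scan day 2 it called 0 members, beside 0.737% of all genes, and wrt-4 was at -0.64 (adjusted p = 0.122). Each day had 3 arrays, 1 of them alone in its dye orientation, and that array was assumed to vary like the others. The difference between days itself passed in 0 members and 0% of all genes, and had an unadjusted p below 0.05 in 8 of 85 members, beside 8.53% of all genes. These were wrt-8, wrt-10, grl-12, grl-15, grl-16, grl-19, ptr-10 and ptr-14. On day 1 wrt-10 was at 0.67 and on day 2 at -0.07, and ptr-15 at 0.75 and 0.13. Both genes were listed above for negative ratios on CPF Cy3 replicates 2 and 3 and positive ratios on the other arrays. Their positive ratios on CPF Cy5 replicate 3 of the second day (0.42 for wrt-10, 0.77 for ptr-15) follow from that choice. Beyond this difference between days, the part of scan day in the ratios was not tested.

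**Figure D5:**
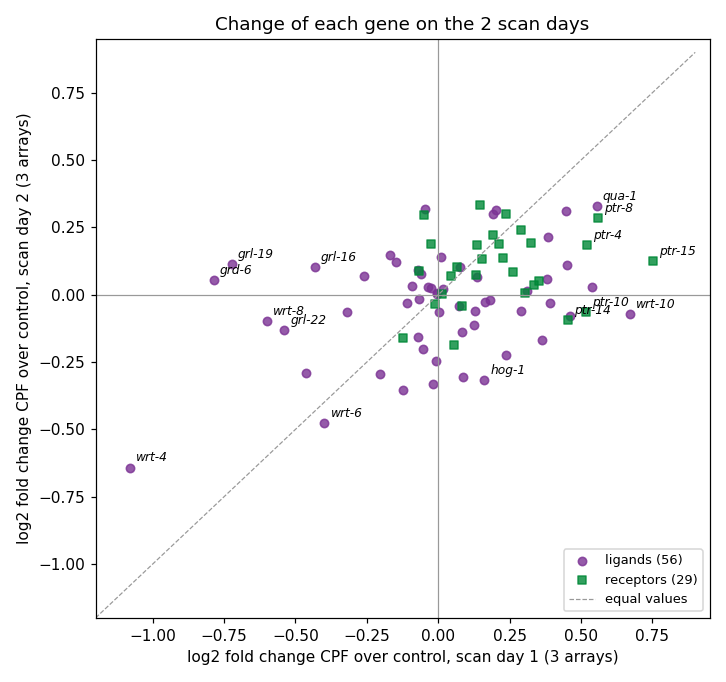
Log2 fold change of CPF over control on scan day 1 (horizontal axis) and scan day 2 (vertical axis), 3 arrays each, of the 56 ligand and 29 receptor genes. The dashed line marks equal values; wrt-4 (-1.08 and -0.64) and wrt-6 (-0.40 and -0.48) lie lower left, and qua-1 (0.55 and 0.33) and ptr-8 (0.56 and 0.29) upper right.

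Genes that work beside these families were read from 5 lists, in which limma called 1 gene. Of 11 measured genes of related function, among them the Gli homologue tra-1 and the sterol-sensing genes ncr-1 and ncr-2, 0 were called and 0 had an unadjusted p below 0.05, and their median fold change was 0.04. Of 11 regulators of the moulting cycle 0 were called (1 at an unadjusted p below 0.05) and all 11 had a fold change above 0, beside 51.8% of all genes, although elt-1, grh-1 and nhr-41 were above background on no array. Their median was 0.09, the highest being nhr-25 (0.38 ± 0.11, adjusted p = 0.200), while nhr-23, which drives moulting genes, was at 0.20 ± 0.10 (adjusted p = 0.561). Of 16 genes of the apical matrix and of moulting 0 were called (3 higher and 1 lower at an unadjusted p below 0.05), with a median of 0.17, and the highest were lpr-3 (0.35 ± 0.21) and noah-1 (0.34 ± 0.10). The 6 collagens of the annular furrows had a median of 0.29 and 0 calls (2 higher at an unadjusted p below 0.05). In none of these 4 lists did the rank product call a gene. Of 11 other collagens that set body shape 1 was called, bli-2, a strut collagen (-0.94 ± 0.15, adjusted p = 0.0395), and 3 were lower at an unadjusted p below 0.05. Both bli-1 and bli-2 were called lower by the rank product, and 4 of the 11 had a fold change above 0. Of the 6 furrow collagens 3 (dpy-2, dpy-7 and dpy-9) were positive on 4 arrays and negative on CPF Cy3 replicates 2 and 3, beside 4.99% of all genes. Of the others dpy-10 was positive on all 6 arrays, and dpy-3 and dpy-8 were positive on CPF Cy3 replicates 2 and 3. Of the 11 other collagens 3 (rol-6, dpy-4 and dpy-13) were negative on 4 arrays and positive on these 2, beside 3.75% of all genes. A further 3 (bli-1, bli-2 and dpy-17) were negative on all 6.

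Markers of stage and tissue were read in the same fit. Of 11 epidermal markers 1 was called, the adult collagen col-19 (-1.58 ± 0.21, adjusted p = 0.0196), which was above background in 6 control samples but in 1 CPF sample only. The rank product called col-19 and bli-1 lower. The median of the list was 0.20, and its summed log2 level was 14.67 to 15.78 in CPF treated worms and 14.79 to 15.58 in control worms. Of 9 glial markers, one of which is ptr-10, 0 were called by limma or the rank product (median 0.13, 2 higher at an unadjusted p below 0.05). Their summed level was 11.40 to 12.22 with CPF and 11.19 to 12.10 in controls, and delm-1 and delm-2 were above background on no array. Of 12 germline markers limma called 0 (median -0.10, 1 lower at an unadjusted p below 0.05) and the rank product 1, gld-1, and their summed level was 14.58 to 15.95 with CPF and 15.30 to 15.68 in controls, with nos-2 above background nowhere. The median ratio of the germline list was -0.39, -0.26 and -0.12 on CPF Cy5 replicates 1 to 3 and -0.63, 0.26 and 0.53 on CPF Cy3 replicates 1 to 3. It was thus below 0 on 4 arrays and above 0 on CPF Cy3 replicates 2 and 3. Of the 12 germline genes 5 had this order of signs themselves, beside 3.75% of all genes. Of 6 yolk protein genes of the adult intestine 4 were called lower by limma and 6 by the rank product, with a summed level of 9.51 to 12.78 with CPF and 12.68 to 13.57 in controls. Of 9 sperm genes 2 were called lower by limma (msp-38 and msp-45) and 4 by the rank product (these, msp-56 and ssp-16), with a summed level of 14.40 to 15.36 with CPF and 15.53 to 16.34 in controls, and msp-10 and ssp-9 were above background nowhere. The part of stage, tissue make-up and single arrays in the ratios of the hedgehog-related and patched-related genes was not tested. Nor was that of scan day, beyond the difference between days given above.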

How the data were processed

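Transcript levels were measured on 6 long-oligonucleotide arrays with 2 colours, each with CPF and control worms in exchanged dyes. The deposited intensity values were the mean spot and local background brightness of both channels, not normalized, and the deposited percent of saturated pixels was read with them. The authors also deposited log2 ratios (per the study's methods, loess and Aquantile in limma), which equalled CPF over control from a loess fit without background correction to within 0.0148. The 742 control or empty spots of 23232 were left out. Names came from locus tags of the assembly WBcel235 (21382 probes), gene numbers (31) or the file (1077).

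Background was corrected with normexp (offset 50), then loess within arrays and Aquantile between arrays. limma 3.58.1 in R 4.3.3 fitted CPF and a dye term to each probe, and p-values (two-sided) were adjusted after Benjamini and Hochberg over 18865 genes, each represented by its brightest probe. The fit was tested on simulated data. Spots whose mean lay over 2 SD above the mean of their local background counted as above background. Levels are log2 normalized intensities. They are compared within a probe only, and a summed level is the log2 of summed intensities. The rank product used 100 permutations and a percentage of false positives below 0.05. Tables and figures were made with pandas 2.3.3 and matplotlib 3.10.9.

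Genes named with full values were each member called, the 8 ligand and 8 receptor genes with the largest absolute fold change among those above background on all arrays of a condition, and members with a known role; others appear in counts, or were named after their values were seen (wrt-8, grl-27, grd-6, grl-19 and those listed by pattern). Members, lists and rules were chosen with earlier results of these data known. Precision is limited by the 6 arrays and, for dim probes, by their low signal. Alternatives were other background corrections, the authors' ratios, scale normalization, dim probes left out, probe averaging, no dye term, scan day, the replicate number as a block, single arrays left out and the rank product. Leaving out CPF Cy3 replicates 2 and 3 together, and a term for the difference between scan days, were added after seeing the data.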

Additional observations from a re-analysis of the deposited data

Results flagged for a closer look

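The 6 ratios of the 27 named genes and of the medians of the 2 families were screened for a single array far from the other 5. Of these 29 series 4 stood out, where chance gives about 1 in 20. The wrt-6 ratio was -1.01 on CPF Cy3 replicate 3 and -0.49 to -0.26 on the other arrays. The wrt-5 ratio was 0.38 on CPF Cy5 replicate 3 and -0.19 to -0.11 on the others. For grl-2 the ratio was -0.53 on CPF Cy3 replicate 2 and 0.17 to 0.51 on the others, and for ptr-18 it was -0.42 on CPF Cy3 replicate 2 and 0.20 to 0.35 on the others. CPF Cy3 replicate 2 was also the array with the lowest share of CPF probes above background (34.98%), and its part in these values was not tested.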

How the results depend on the processing

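The number of all genes called was 225 and became 19 with no background correction, 3 with plain subtraction, 19 from the authors' ratios, 130 with scan day as a block, 861 within scan day 1, 139 within scan day 2, 619 without CPF Cy3 replicates 2 and 3, and 549 with the rank product. With scale normalization it was 305 of 18865. With 1 array left out it ranged from 7 to 313 (37, 7 and 84 without CPF Cy5 replicates 1 to 3, 24 without CPF Cy3 replicate 3). The ligand genes called were 1 and became 0 with no background correction, with plain subtraction, from the authors' ratios and within scan day 2, 3 with scale normalization, 7 within scan day 1 and 5 without CPF Cy3 replicates 2 and 3, and they ranged from 0 to 1 with 1 array left out. The receptor genes called were 0 and became 2 within scan day 1, 3 without CPF Cy3 replicates 2 and 3, and 1 with the rank product. The ligand median was 0.078 among the 26 ligand genes above background, and other settings kept both medians within the spread between arrays. Between same-numbered arrays of opposite dye orientation the deviations had r = 0.10, 0.08 and -0.04, and between the other pairs r = -0.13 to 0.06. With 3 arrays per orientation these values cannot settle whether the numbers mark pairs. In this text the numbers name the arrays only. With the replicate number as a block 295 genes, 1 ligand gene and 0 receptor genes were called. Among the 27 named genes 19 kept 1 sign under all settings in which they had a value, and the other 8 changed sign in 13 values while not called. The cause of these differences was not tested. The scanner's spot code was not used as a filter because most spots did not carry it. The dimmest members, 23 above background on no array, are limited by signal.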
